A study of Mus musculus with 8 samples.

Results

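The respiratory chain was described here through its nuclear-encoded subunit genes in gastric squamous-columnar junction (SCJ) cancers and control SCJ tissue. The members were the genes whose symbols start with Nduf (complex I and its assembly factors), Uqcr (complex III), Cox4 to Cox8 (complex IV) or Atp5 (complex V), with Sdha, Sdhb, Sdhc and Sdhd for complex II. This rule found 92 of the 23361 genes in the table. They comprised 36 genes of complex I, 4 of complex II, 8 of complex III, 20 of complex IV, 15 of complex V and 9 assembly or accessory factors, with Ndufa4 and Ndufa4l2 placed in complex IV, to which Ndufa4 protein belongs. The subunits encoded by mitochondrial DNA itself were not analysed here.

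The respiratory chain sits in the inner mitochondrial membrane. Complexes I and II take electrons from NADH and succinate, complex III passes them to cytochrome c, and complex IV hands them to oxygen. The proton gradient built by complexes I, III and IV drives ATP synthesis by complex V. In the stomach, acid-secreting parietal cells are known for their dense mitochondria.

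RNA-seq had been performed on 5 SCJ cancers and 3 control SCJ tissues. The cancers, with the genotype Trp53-/-Rb1-/-, arose in mice carrying Lgr5-eGFP-Ires-CreERT2, floxed Trp53 and Rb1 alleles and the Ai9 tdTomato reporter, in which tamoxifen activates Cre in Lgr5+ cells, and the masses were cut out along their tdTomato signal long after induction. Controls were the SCJ part of stomachs from age-paired wild type mice, so genotype, lesion and the way of dissection changed together and cannot be told apart. Whether these controls had received tamoxifen is not given in the labels. Nothing in the labels says that each cancer came from its own mouse, so the p-values measure only the spread between these samples.

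Of the genes removed in the cancers, Trp53 was listed at 12, 22, 12, 30 and 12 FPKM (fragments per kilobase of transcript, scaled for library size) in cancers 1 to 5 and at 16, 17 and 19 in controls 1 to 3. Rb1 was listed at 4, 4, 5, 6 and 4 FPKM against 9, 9 and 10. Gene-level values include exons outside any deleted part, so neither gene is a full check of the labels. The FPKM columns summed to between 403569 and 573858 in the cancers and between 887141 and 992550 in the controls. The 10 most abundant genes held 11.1 to 19.6% of the sum in cancers and 39.3 to 44.3% in controls. The members were therefore compared on FPKM as deposited and again with each column rescaled to a sum of 1000000. Rescaling moved the median log2 difference of all 14357 tested genes from -0.04 to 0.81. That of Rb1 moved from -0.90 (adjusted p = 0.0059, limma) to -0.05 (adjusted p = 0.84). For Trp53 it moved from -0.08 (adjusted p = 0.87) to 0.86 (adjusted p = 0.02). No read counts accompany these values, so the depth behind them is unknown.

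The letters in front of a few of these genes are shown first, because the chain is encoded by many scattered genes whose start regions share known motifs. RefSeq promoter windows on GRCm38.p6, from 250 bases before to 50 after a start site, were matched to 68 of the 83 subunit genes. The 170 bases before the start are printed for Sdha (minus strand, chr13:74350241-74350410), Sdhd (minus strand, chr9:50603850-50604019) and Cox6a1 (minus strand, chr5:115348959-115349128), which hold NRF1 matches, and for Atp5b (plus strand, chr10:128083137-128083306) and Cox7a1 (plus strand, chr7:30184001-30184170), which were lower in the cancers on both scales. Capitals mark matches on either strand to the NRF1 letters (GCGCA and GCGC with any 1 base between them) or the ETS letters CCGGAAG, of which GABPA is a known reader.
Sdha: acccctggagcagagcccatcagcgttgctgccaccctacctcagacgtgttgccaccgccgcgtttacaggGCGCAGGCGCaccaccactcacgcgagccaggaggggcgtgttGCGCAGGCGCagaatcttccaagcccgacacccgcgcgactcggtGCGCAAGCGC
Sdhd: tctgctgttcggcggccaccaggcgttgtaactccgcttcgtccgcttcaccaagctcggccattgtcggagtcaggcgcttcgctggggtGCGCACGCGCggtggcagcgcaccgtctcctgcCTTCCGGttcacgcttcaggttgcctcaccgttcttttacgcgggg
Cox6a1: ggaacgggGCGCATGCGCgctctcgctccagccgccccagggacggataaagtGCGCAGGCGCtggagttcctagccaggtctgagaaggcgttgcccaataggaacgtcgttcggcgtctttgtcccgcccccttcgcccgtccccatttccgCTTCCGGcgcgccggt
Atp5b: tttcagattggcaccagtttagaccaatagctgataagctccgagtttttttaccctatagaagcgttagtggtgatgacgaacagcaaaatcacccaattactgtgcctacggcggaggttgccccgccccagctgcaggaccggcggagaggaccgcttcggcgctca
Cox7a1: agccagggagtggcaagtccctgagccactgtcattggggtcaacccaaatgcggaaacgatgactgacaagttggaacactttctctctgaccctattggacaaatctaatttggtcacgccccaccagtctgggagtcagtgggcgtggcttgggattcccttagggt

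NRF1 letters stood in the windows of 17 of the 68 subunit genes (25.0%) and of 5.14% of the other genes with a window. Sdha held 3 such matches and Cox6a1 held 2. The ETS letters were found in 23.5% of subunit windows and 9.89% of the others, and the YY1 letters AAGATGGC in 14.7% and 3.16%. For ERR, the family of estrogen-related receptors, TCAAGGTCA was found in Atp5g3 and, after the start, in Sdhd, 2.9% against 0.46%, and its core AAGGTCA, which lies inside the longer form, in 11.8% against 5.36%. SP1 letters (GGGCGG) were about as frequent in both, at 41.2% and 38.2%, and the E2F letters TTTCCCGC were in none of the 68 and in 1.24% of other genes, with a second E2F form, TTTGGCGC, in 2.9% and 0.579%. The windows printed for Atp5b and Cox7a1 held no NRF1, ETS, ERR or YY1 letters. These are matches of letters and not evidence of binding. Atp5a1, Cox4i1, Cox4i2, Cox6a2, Cox6c, Cox8c, Ndufa2, Ndufa4l2, Ndufb9, Ndufs1, Sdhc, Uqcrb, Uqcrc2 and Uqcrq were among the genes with no entry.

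On the deposited FPKM scale, a subset of respiratory chain subunits was lower in the SCJ cancers than in control tissue. Of the 92 members, 88 reached 1 FPKM in 3 or more of the 8 samples and were tested. In the limma fit over all 14357 tested genes, 27 members fell and 0 rose at an adjusted p under 0.05, where 18.3% of all genes fell and 16.2% rose. The 27 made up 30.7% of the tested members, and all of them were subunits. Without adjustment, 63 members were lower and 0 were higher at p under 0.05, where 3639 of all 14357 genes were lower and 3245 higher. By complex, 8 of 36 genes fell in complex I, 4 of 4 in complex II, 4 of 8 in complex III, 4 of 16 in complex IV, 7 of 15 in complex V and 0 of 9 among the factors. The median log2 difference, cancer minus control, was -1.10 over the 88 members, against -0.04 over all tested genes. Of the members 82 lay below 0, and of the 14357 genes 7427 did.

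Median differences were close to each other across the complexes, at -0.99 in complex I, -1.16 in complex II, -1.36 in complex III, -1.32 in complex IV and -1.14 in complex V. The assembly and accessory factors stood apart at -0.14. All 5 cancers lay below all 3 controls in 41 members, among them 13 of complex I, 4 of complex II, 6 of complex III, 7 of complex IV and 11 of complex V. Such a separation was seen in 19.8% of all tested genes. No member had all cancers above all controls, which 14.4% of tested genes did.

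The count of 27 depended on single libraries. It was 14 without cancer 1, 8 without cancer 3, 69 without cancer 4 and 11 without cancer 5, and it was 5, 5 and 6 without control 1, 2 or 3. The members' median difference stayed between -1.30 and -0.92 with each library left out. Of the 27 calls, 4 held without any one library, those of Ndufs1, Sdha, Atp5a1 and Atp5b. Sdhc lost its call without any 1 control, Uqcrfs1 without control 3, Atp5f1 without control 1 or 2, and each of the others without cancer 3 or a control. With a block for the shared replicate number, 2 of 88 members were lower, a smaller share than the 552 of 14357 genes tested.

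**Figure D1:**
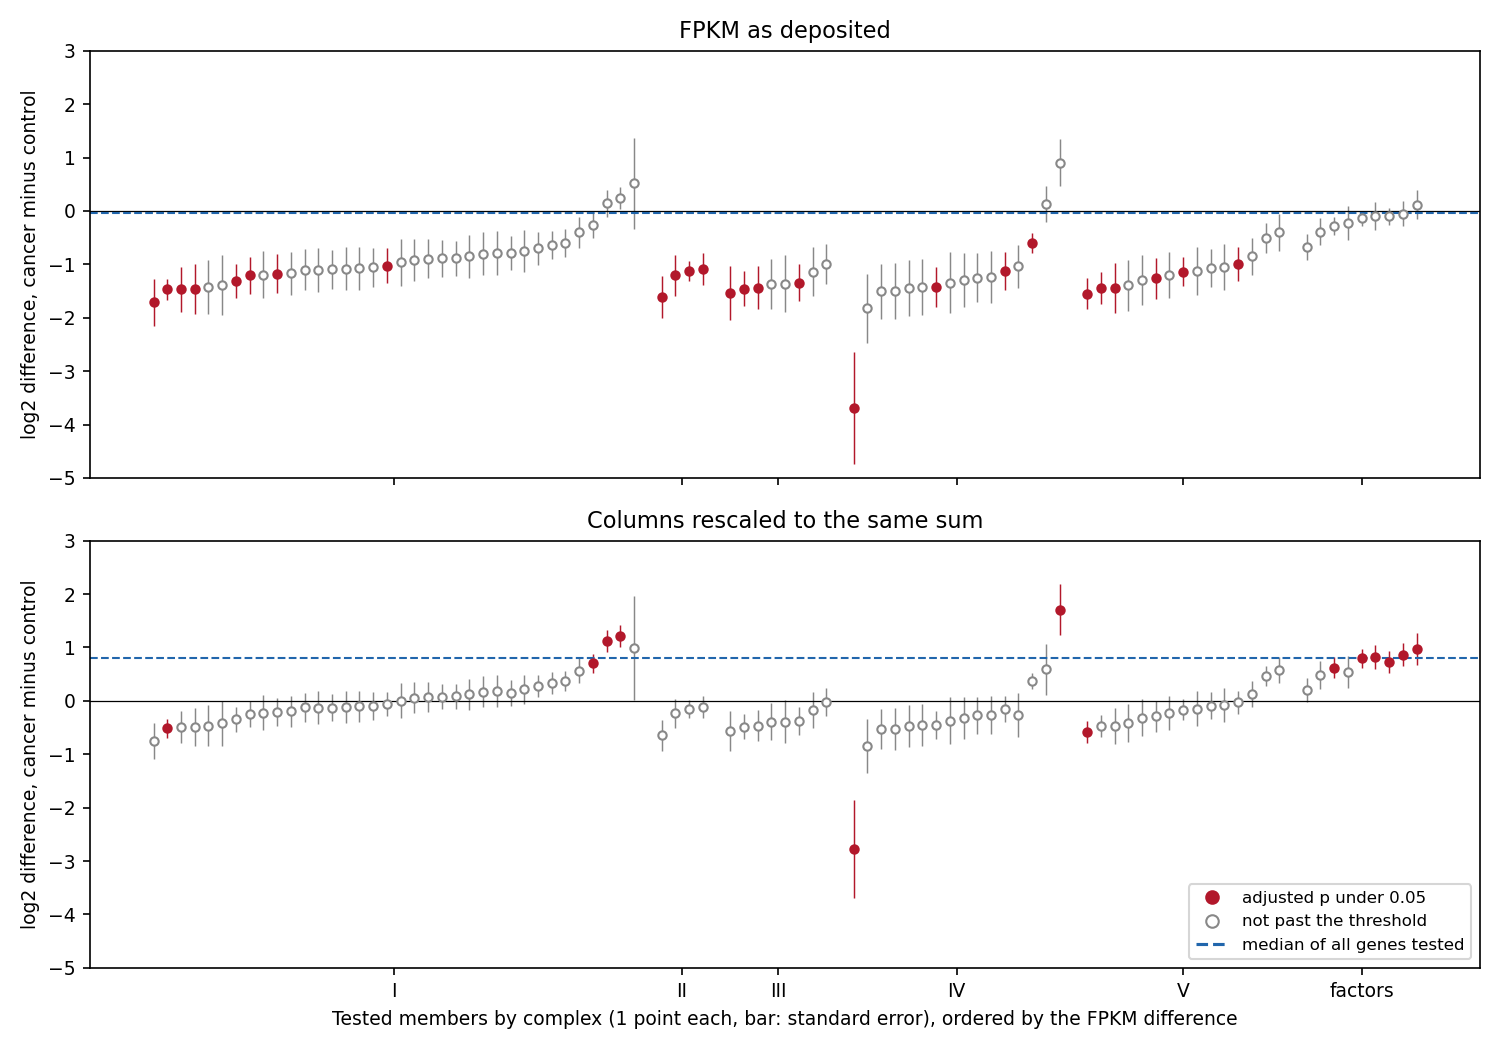
Log2 difference between cancer and control for each of the 88 tested members, grouped by complex, on deposited FPKM (top) and after rescaling the columns to the same sum (bottom); points are fitted differences, bars their standard errors, and filled points had an adjusted p under 0.05 (limma). The dashed line is the median of all tested genes, -0.04 at the top and 0.81 at the bottom, and most subunits lie below it in both panels.

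On the rescaled columns, the members' median difference was -0.13, and the median of all genes was 0.81. Here 3 members were lower (Cox7a1, Atp5b and Ndufs1), where 3.68% of all genes were lower, and 10 were higher, where 50.0% of all genes were higher. All 5 cancers lay below all 3 controls in 2 members, where 4.51% of all genes did so, and above them in 14, where 49.6% of all genes did so. The 10 comprised the subunits Ndufa1, Ndufa2, Ndufc2 and Cox6b2 and 6 of the 9 factors. No member was called in opposite directions on the 2 scales. 24 members were lower on FPKM alone and 10 were higher on rescaled values alone, while 51 passed on neither scale. By complex, the rescaled medians were -0.03 for complex I, -0.20 for II, -0.39 for III, -0.35 for IV and -0.17 for V, and 0.73 for the factors. The count of 3 was 1 without cancer 1, 0 without cancer 3, 9 without cancer 4, 1 without cancer 5, and 0, 0 and 1 without control 1, 2 or 3. That of 10 was 4 without control 1 and 6 without control 2.

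Sample by sample, the 5 cancers did not behave as one level. The median FPKM over the 79 tested subunits was 89, 198, 108, 247 and 125 in cancers 1 to 5 and 255, 282 and 343 in controls 1 to 3. All 5 cancers were below all 3 controls, with cancer 4 just under the lowest control. After rescaling, the same medians were 220.5, 345, 246.2, 441.3 and 280.4 in cancers and 266.8, 317.9 and 345.6 in controls, so that the groups overlapped and cancer 4 was the highest sample of the 8. As a share of the whole column, the subunits took 2.26, 3.96, 2.57, 5.04 and 2.78% in the cancers (3.32 ± 1.16, SD, n = 5) and 3.23, 3.60 and 4.22% in the controls (3.68 ± 0.500, SD, n = 3). The cancers varied more than the controls and spanned their range.

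Cancers 2 and 4 were both above cancers 1, 3 and 5 in 74 of the 79 subunits, and the same held for 17.1% of all tested genes. Genes outside the chain also split the cancers this way by transcript length. Under 1000 bases, their median log2 level relative to the control mean was -0.45, -0.30 and -0.33 in cancers 1, 3 and 5 and 0.06 and 0.16 in cancers 2 and 4, whereas from 4000 bases it was 0.11, 0.02 and 0.07 against -0.25 and -0.18. The part of this gradient in the order of the cancers was not tested. Cancer 4 had the highest FPKM of the 5 in 72 subunits. It reached the control range, or passed it, in 37 of 79 subunits, cancer 2 did so in 10, and cancers 1, 3 and 5 in 5 each. Within each sample, the median subunit had a percentile among tested genes of 95.8 to 97.7 in the cancers and of 97.4 to 98.1 in the controls.

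**Figure D2:**
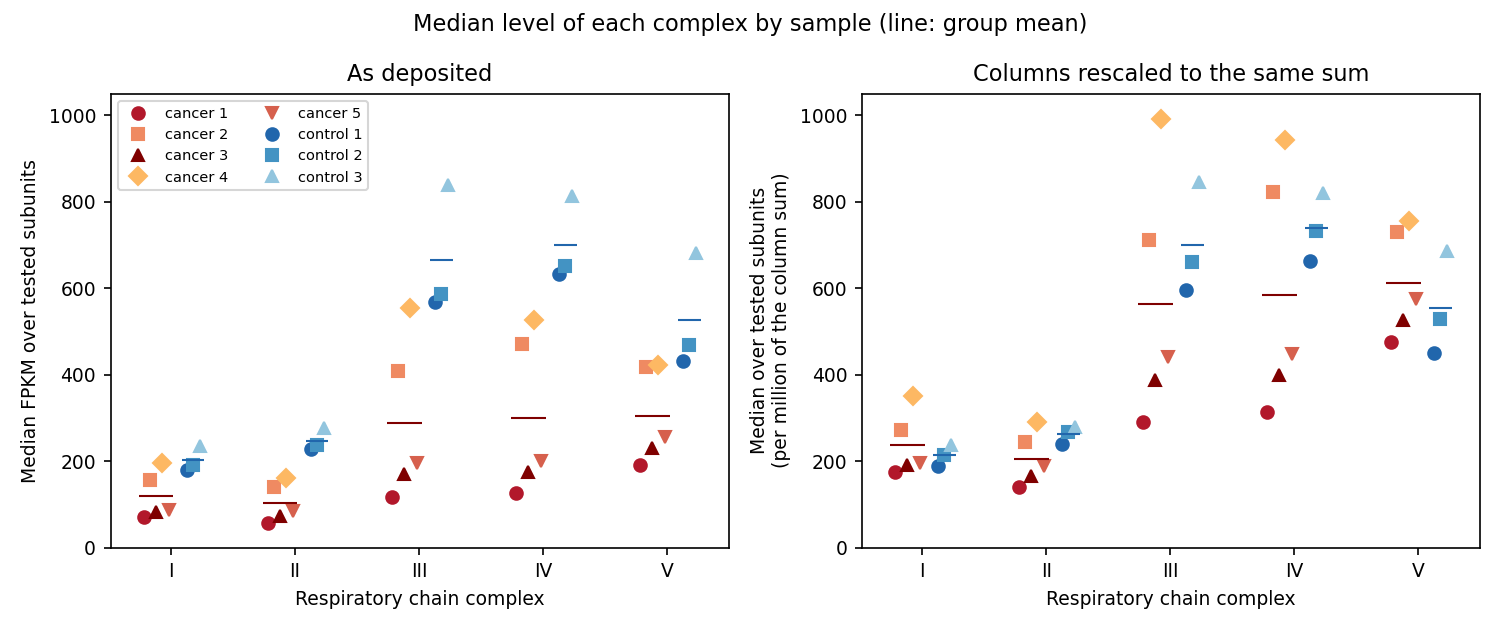
Median level of the tested subunits of each complex in each of the 8 samples, as deposited FPKM (left) and per 1000000 of the column sum (right); horizontal lines are group means. On the left the cancers lie below the controls in complexes II to V and all but cancer 4 do in complex I; on the right cancers 2 and 4 lie among or above the controls and cancers 1, 3 and 5 lie below them in complexes II to IV.

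Complex I, which oxidises NADH, had its largest fall in Ndufv1, the flavoprotein that binds NADH. Ndufv1 was at 24, 79, 33, 91 and 59 FPKM in the cancers and at 142, 178 and 191 in the controls. The cancers lay below the controls throughout, with a log2 difference of -1.71 ± 0.44 (SE) and an adjusted p of 0.022 (limma). Ndufs1 (chr1:63143592-63176822), the large iron-sulfur subunit, was at 25, 37, 30, 42 and 32 FPKM in cancers 1 to 5 and 89, 109 and 81 in controls. The cancers were more alike for Ndufs1 than for most subunits, and none came near the controls. Its difference was -1.47 ± 0.19 on FPKM (adjusted p = 0.0022, limma) and -0.51 ± 0.17 on rescaled values (adjusted p = 0.034). The rescaled call of Ndufs1 was lost without cancer 1 or 3 or control 1 or 2. Ndufb9, an accessory subunit, averaged 213 ± 113 FPKM (SD, n = 5) in the cancers and 530 ± 58.8 (SD, n = 3) in the controls, a difference of -1.46 (adjusted p = 0.033). Ndufa3, the most abundant member of the complex by summed FPKM, spanned 185 to 500 FPKM in cancers and 518 to 669 in controls, with a difference of -1.10 that did not pass (adjusted p = 0.059).

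A few complex I genes departed from the rest. Ndufa1, an accessory subunit needed for assembly of the membrane arm, was at 244, 252, 275, 428 and 309 FPKM in the cancers and at 233, 262 and 255 in the controls. The groups overlapped, and cancer 4 was the highest. The FPKM difference was 0.24 ± 0.21 (adjusted p = 0.39). On rescaled columns all cancers were above all controls, with a difference of 1.22 ± 0.21 (adjusted p = 0.0025). Ndufc2 was at 132, 174, 103, 178 and 134 FPKM in the cancers and at 121, 97 and 178 in the controls, again overlapping, and differed by 1.12 ± 0.20 after rescaling (adjusted p = 0.0031) and by 0.14 on FPKM (adjusted p = 0.68). Ndufa2 was at 126 to 247 FPKM in the cancers and 175 to 232 in the controls and differed by 0.71 ± 0.18 after rescaling (adjusted p = 0.011). On that scale the median of all genes was 0.81, above the value of Ndufa2, and 50.0% of all genes were higher. Ndufs5 was listed at 1, 0, 0, 9 and 2 FPKM in cancers and 3, 0 and 0 in controls, far under the other 35 genes of the complex, so its level is reported as uncertain.

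In complex II, succinate dehydrogenase, all 4 subunits fell on the FPKM scale. Sdha, the flavoprotein that also acts in the citric acid cycle, was at 56, 78, 56, 80 and 69 FPKM in cancers 1 to 5 and 126, 171 and 148 in controls. No cancer came near a control, and the difference was -1.12 ± 0.18 (adjusted p = 0.0044, limma). Sdhc, a membrane anchor, fell furthest, at 41, 124, 71, 147 and 86 FPKM against 240, 246 and 312, a difference of -1.61 ± 0.40 (adjusted p = 0.019). Sdhb, the iron-sulfur subunit, also fell (-1.21, adjusted p = 0.045), and so did Sdhd, the other anchor (-1.09, adjusted p = 0.030). Cancers 2 and 4 were the highest of the 5 for each of the 4 genes. After rescaling, the 4 differences lay between -0.65 and -0.12 and none passed.

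Complex III, which passes electrons from ubiquinol to cytochrome c, had all 8 members below 0 and 4 called. Uqcrfs1, the Rieske iron-sulfur protein, was at 69, 150, 83, 180 and 98 FPKM in the cancers and at 257, 285 and 367 in the controls. The groups did not overlap, and the difference was -1.45 ± 0.34 (adjusted p = 0.015, limma). Uqcr10, a small subunit, was at 118, 480, 167, 482 and 194 FPKM against 683, 621 and 861, a difference of -1.54 ± 0.51 (adjusted p = 0.049). Both core subunits fell, Uqcrc1 with a log2 difference of -1.44 (adjusted p = 0.030) and Uqcrc2 with -1.34 (adjusted p = 0.023). Uqcrh, the hinge protein and the complex III gene with the largest FPKM summed over all 8 samples, spanned 239 to 677 FPKM in cancers and 699 to 943 in controls and did not pass (-0.997, adjusted p = 0.069). None of the 8 passed after rescaling.

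Complex IV, cytochrome c oxidase, held both the largest fall and the largest spread. Cox7a1 (chr7:30184171-30186030), the form of subunit 7a known from heart, skeletal muscle and brown fat, was at 5, 49, 15, 148 and 6 FPKM in the cancers and at 217, 295 and 346 in the controls. Cancers 1, 3 and 5 were near the bottom, cancer 2 lay between, and cancer 4 came closest to the controls without reaching them. Controls averaged 286 ± 65.0 FPKM (SD, n = 3), 6.41 times the mean of the cancers, 44.6 ± 60.5 (SD, n = 5). On the log2 scale the difference was -3.69 ± 1.04 (adjusted p = 0.030) on FPKM and -2.78 ± 0.91 (adjusted p = 0.032) after rescaling, where cancer 4 overlapped the controls. The FPKM call was lost without cancer 1, 3 or 5 (adjusted p = 0.054, 0.070 and 0.058) and without any one control (0.080 to 0.097), and the rescaled call without cancer 3 or 5 or any one control. Its mean percentile among the tested genes of a sample was 97.7 in controls and 67.6 in cancers.

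Cox7a2, the widely expressed form of the same subunit, was at 130, 299, 175, 328 and 157 FPKM against 397, 370 and 603, a difference of -1.13 ± 0.36 (adjusted p = 0.045, limma). Cox7a1 made up 3.7, 14.1, 7.89, 31.1 and 3.68% of Cox7a1 plus Cox7a2 in cancers 1 to 5 and 35.3, 44.4 and 36.5% in controls. This share needs no scaling between samples, and all 5 cancers lay under all 3 controls. The log2 ratio of the 2 genes differed by -2.56 (two-sided exact permutation test over 56 splits, p = 0.036, adjusted p = 0.071 over 6 pairs of isoforms or duplicate genes).

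Cox6b2, the testis form of subunit 6b, was listed at 1, 6, 4, 4 and 7 FPKM in cancers and 1, 2 and 2 in controls. Its share of Cox6b1 plus Cox6b2 was 0.346, 0.663, 1.09, 0.329 and 1.71% in cancers and 0.0744, 0.14 and 0.106% in controls. Every cancer exceeded every control in this share, with a log2 ratio difference of 2.41 (exact permutation p = 0.018, the smallest that 5 against 3 can give, adjusted p = 0.071). Values of a few FPKM rounded to whole numbers limit what this ratio can show. Cox4i2 and Ndufa4l2, both associated with hypoxia, did not exceed 1 and 10 FPKM, and their ratios to Cox4i1 and Ndufa4 gave exact permutation p-values of 0.054 and 0.32 (adjusted 0.080 and 0.39). Cox6a2, Cox7b2 and Cox8c were listed at 0 in all 8 samples. Cox8b, a muscle and brown fat form, was listed at 19 and 2 FPKM in cancers 1 and 2 and at 0 elsewhere. In cancer 1 the adipocyte markers Adipoq (49 FPKM), Plin1 (13), Cfd (164) and the brown fat gene Ucp1 (3) were also listed, and in the controls these 4, picked after their values were seen, were at 0. Of the other adipocyte markers, Cidec was at 23 FPKM in cancer 1 and 12 to 23 in the controls, Fabp4 at 455 and 109 to 156, and Lep at 2 and 0. Their part in the Cox8b value was not tested.

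Among the common subunits of complex IV, Cox4i1, a core-binding subunit present in most tissues, was at 328, 936, 428, 1269 and 478 FPKM in cancers and 1150, 1309 and 1923 in controls. Cancer 4 lay inside the control range, and the difference of -1.24 did not pass (adjusted p = 0.078, limma). Cox5a was at 73, 527, 129, 453 and 201 FPKM against 712, 666 and 930, with a difference of -1.82 ± 0.65 that did not pass either (adjusted p = 0.061). Cox6b1, with the largest FPKM of the complex summed over all 8 samples though below Cox4i1 in each cancer, ranged from 288 to 1211 FPKM in cancers and from 1343 to 1891 in controls (-1.51, adjusted p = 0.052), and Cox6a1 from 243 to 1149 and from 1162 to 1719 (-1.44, adjusted p = 0.063). The NRF1 letters printed for Cox6a1, Sdha and Sdhd therefore stood before 2 genes that passed and 1 that did not. These genes were picked for display, and no link between letters and calls was tested. Ndufa4 fell by 1.43 on the log2 scale (adjusted p = 0.025), from a mean of 1071 FPKM in controls to 427 in cancers. Cox7a2l, which helps join complexes III and IV, fell by 0.60 on FPKM (adjusted p = 0.041), less than the median of the complex. After rescaling its direction turned, to 0.37 (adjusted p = 0.058), with every cancer above every control.

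**Figure D3:**
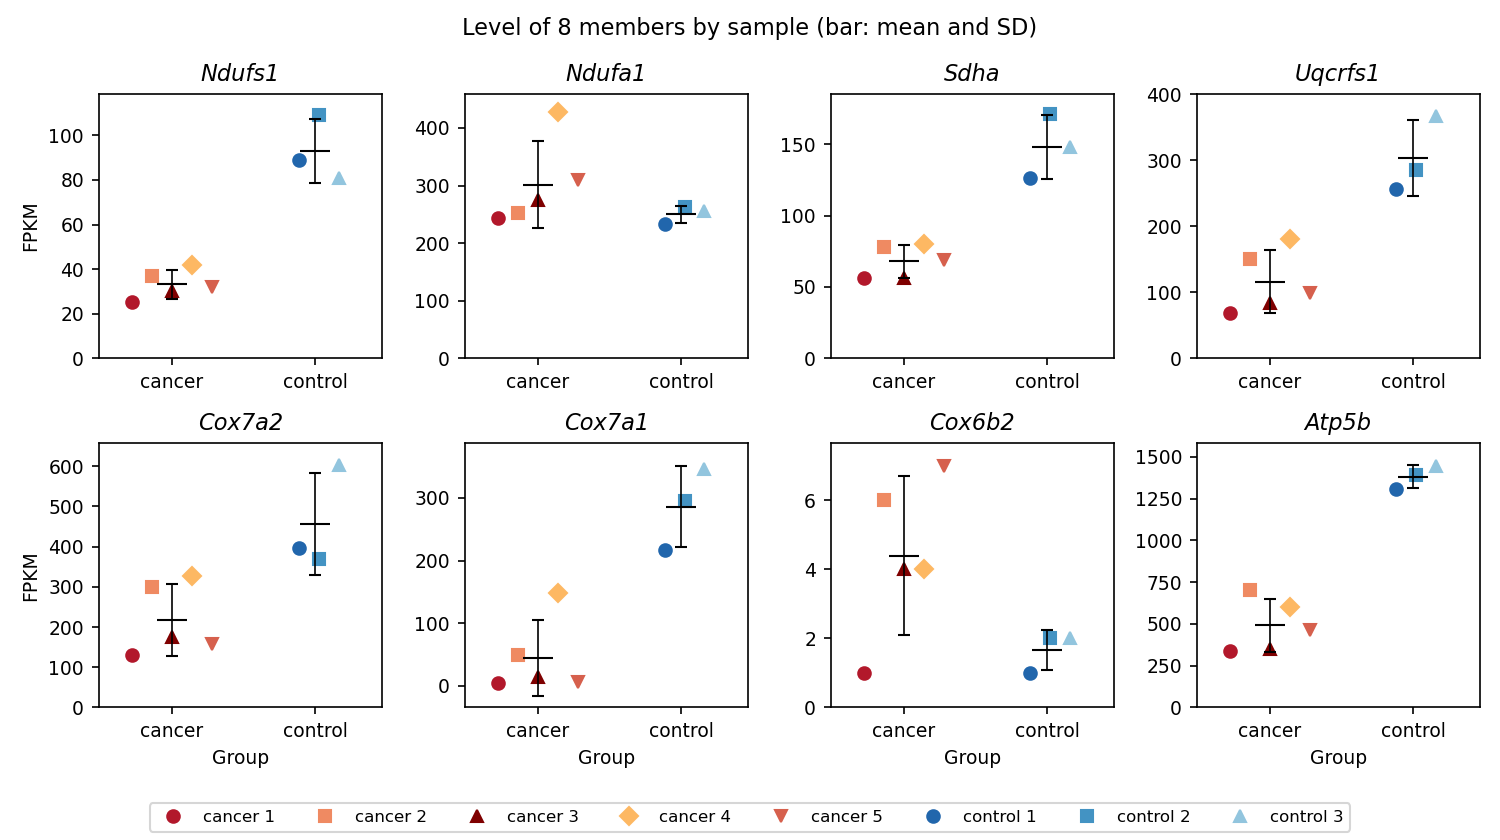
FPKM of 8 members in each cancer and control sample, with mean and SD (n = 5 and 3) in black. Ndufs1, Sdha, Uqcrfs1, Cox7a2, Cox7a1 and Atp5b are lower in every cancer than in every control, Ndufa1 overlaps, and Cox6b2 stays at 7 FPKM or less.

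Complex V, the ATP synthase, had the most calls for its size after complex II and complex III. Atp5b (chr10:128083307-128090388), the catalytic beta subunit and the complex V gene with the largest FPKM summed over all 8 samples, was at 337, 706, 347, 601 and 463 FPKM in cancers and at 1307, 1392 and 1447 in controls. The lowest control was well above the highest cancer. The difference was -1.55 ± 0.29 on FPKM (adjusted p = 0.0076, limma) and -0.58 ± 0.21 after rescaling (adjusted p = 0.041), with the groups separate on both scales. The rescaled call of Atp5b held without cancer 2 or 4 but not without any 1 of the other libraries. Atp5a1, the alpha subunit, was at 192, 422, 232, 406 and 256 FPKM against 689, 830 and 844, a difference of -1.45 ± 0.30 (adjusted p = 0.011). For Atp5a1, cancer 2 was the highest of the 5, as it was for Atp5b, rather than cancer 4.

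The c ring of complex V is built from one protein encoded by 3 genes, Atp5g1, Atp5g2 and Atp5g3. Atp5g3 was at 219, 704, 324, 838 and 374 FPKM in cancers and 1064, 1024 and 1533 in controls and fell by 1.44 on the log2 scale (adjusted p = 0.045, limma). Atp5g2 was at 208, 419, 231, 349 and 268 FPKM against 360, 361 and 512 and did not pass (-0.51, adjusted p = 0.18). The share of Atp5g2 in Atp5g2 plus Atp5g3 was 48.7, 37.3, 41.6, 29.4 and 41.7% in cancers and 25.3, 26.1 and 25.0% in controls, with every cancer above every control. Their log2 ratio differed by 0.94 (exact permutation p = 0.036, adjusted p = 0.071). The ratio of Atp5g1 to Atp5g3 differed by 0.05 (exact permutation p = 0.75, adjusted p = 0.75). Atp5e, the epsilon subunit, ranged from 369 to 820 FPKM in cancers and from 548 to 786 in controls, and the groups overlapped (-0.40, adjusted p = 0.39).

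With each column centred on the median of its own chain members, a scale chosen after the data were seen, 1 member was lower and 7 were higher at an adjusted p under 0.05 (limma), where 2.46% of all genes were lower and 38.6% higher. The lower member was Cox7a1, with a difference of -2.64 ± 0.64 (adjusted p = 0.010), and this call held without any one library. The higher ones were Ndufa1 (1.28, adjusted p = 0.0092), Ndufc2 (1.19, 0.012), Ndufa2 (0.78, 0.032), Cox6b2 (1.94, 0.011), Atp5e (0.65, 0.036) and the factors Atp5s and Ndufaf2 (1.16 and 0.95). The count of 7 was 3 without cancer 1, 3 or 5, 12 without cancer 4, and 2, 2 and 1 without control 1, 2 or 3.

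The factors that build complex I were scarce beside its subunits. Their median level, with Atp5s and Atp5sl, was 5, 8, 7, 11 and 5 FPKM in cancers 1 to 5 and 9, 10 and 8 in controls, so the groups overlapped. Ndufaf3 was at 12, 17, 15, 17 and 16 FPKM against 18, 18 and 15 and differed by -0.14 (adjusted p = 0.48, limma). After rescaling it differed by 0.79 (adjusted p = 0.0059), close to the median of all genes, 0.81. Of 7 complex I assembly factors outside the symbol rule, 3 fell on FPKM, led by Acad9 (-1.49, adjusted p = 0.010), and the median was -0.64. Among 20 complex IV assembly factors, 8 fell and 0 rose on FPKM, with a median of -0.57, where 18.3% of all genes fell and 16.2% rose. Taco1, a translation activator of a mitochondrial subunit, fell (-1.54, adjusted p = 0.0021), and so did Sco1, a copper chaperone (-1.34, adjusted p = 0.0062). Of 7 factors for complexes II, III and V, 1 fell (Tmem70, an ATP synthase factor, -0.87, adjusted p = 0.018). After rescaling, 0 factors of these lists were lower and 5, 4 and 3 were higher for complex IV, for complexes II, III and V, and for complex I, where 50.0% of all genes were higher.

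Other mitochondrial genes were counted the same way, beside 18.3% of all genes lower and 16.2% higher on FPKM, and 3.68% lower and 50.0% higher after rescaling. Among 5 chain proteins whose symbols the rule missed, 3 fell on FPKM (median -1.31) and 0 passed after rescaling (median -0.33). The 3 included Cyc1, cytochrome c1 (-1.54, adjusted p = 0.037), and Cycs, cytochrome c (-1.42, adjusted p = 0.041). Citric acid cycle and pyruvate enzymes had 15 of 19 lower and 0 higher on FPKM, with a median of -1.24, and 2 lower and 1 higher after rescaling (median -0.28). Pcx, pyruvate carboxylase, fell furthest (-2.39, adjusted p = 0.010). Carriers and outer membrane proteins had 8 of 15 lower on FPKM (median -0.81), and 0 lower and 4 higher after rescaling (median 0.10). Hypoxia-responsive glycolytic genes had 7 of 15 lower and 1 higher on FPKM (median -0.84), and 1 lower and 2 higher after rescaling (median -0.02). Of the mitochondrial ribosomal proteins, 8 of 76 fell (median -0.51), and of the cytosolic ones 0 of 81 fell or rose (median -0.25). The chain subunits, at a median of -1.13, were nearest to the citric acid cycle list. After rescaling, 30 of 76 mitochondrial and 63 of 81 cytosolic ribosomal genes were higher.

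Regulators of mitochondrial biogenesis had 6 of 19 lower and 1 higher on FPKM, with a median of -0.33, and 1 lower and 9 higher after rescaling, with a median of 0.57. Over all genes 18.3% were lower and 16.2% higher on FPKM, and 3.68% lower and 50.0% higher after rescaling. Esrrg, an estrogen-related receptor that activates respiratory genes and marks parietal cells, was at 0, 8, 8, 29 and 4 FPKM in cancers and 50, 56 and 52 in controls. Its log2 difference was -3.03 (adjusted p = 0.042, limma), and -2.38 after rescaling, where it did not pass (adjusted p = 0.082). Its relatives Esrra (-2.01, adjusted p = 0.044) and Esrrb (-1.88, adjusted p = 0.0043) fell too, as did the coactivator Ppargc1b (-1.68, adjusted p = 0.019). After rescaling Esrrb passed (-1.85, adjusted p = 0.0081), and Esrra (-1.10, adjusted p = 0.11) and Ppargc1b (-1.18, adjusted p = 0.095) did not. Ppargc1a was listed at 0, 1, 1, 3 and 3 FPKM against 3, 5 and 4 (-1.10, adjusted p = 0.098). Nrf1 and Tfam, the mitochondrial DNA packaging factor, differed by -0.03 and 0.04 on FPKM (adjusted p = 0.88 and 0.85) and by 0.85 and 0.96 after rescaling (adjusted p = 0.023 and 0.014), near the 0.81 of all genes. Gabpb1, a partner of GABPA, rose by 0.79 on FPKM (adjusted p = 0.018) and by 1.71 after rescaling (adjusted p = 0.0022).

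Parietal cell markers were also examined beside the chain. All 11 lay below 0 and 6 fell on FPKM (median -3.10; after rescaling 4 fell and the median was -3.08), where 18.3% of all genes fell on FPKM and 3.68% after rescaling. Their summed FPKM was 5, 1575, 227, 2747 and 320 in cancers 1 to 5 and 6857, 12684 and 10895 in controls. The cancers thus stood in the same order for the parietal sum as for the chain median, from cancer 1 through 3, 5 and 2 to cancer 4. Atp4a, the acid pump, was at 0, 370, 66, 810 and 67 FPKM against 1643, 3437 and 3572 (adjusted p = 0.068). In bulk tissue, fewer cells of a type and less RNA per cell cannot be told apart, and the part of the parietal markers in the chain's difference was not tested. Cytosolic ribosomal protein sums followed the same order among the cancers, at 44475, 82009, 47176, 85557 and 51301 FPKM, but the controls (74340, 67834 and 75669) lay within them.

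**Figure D4:**
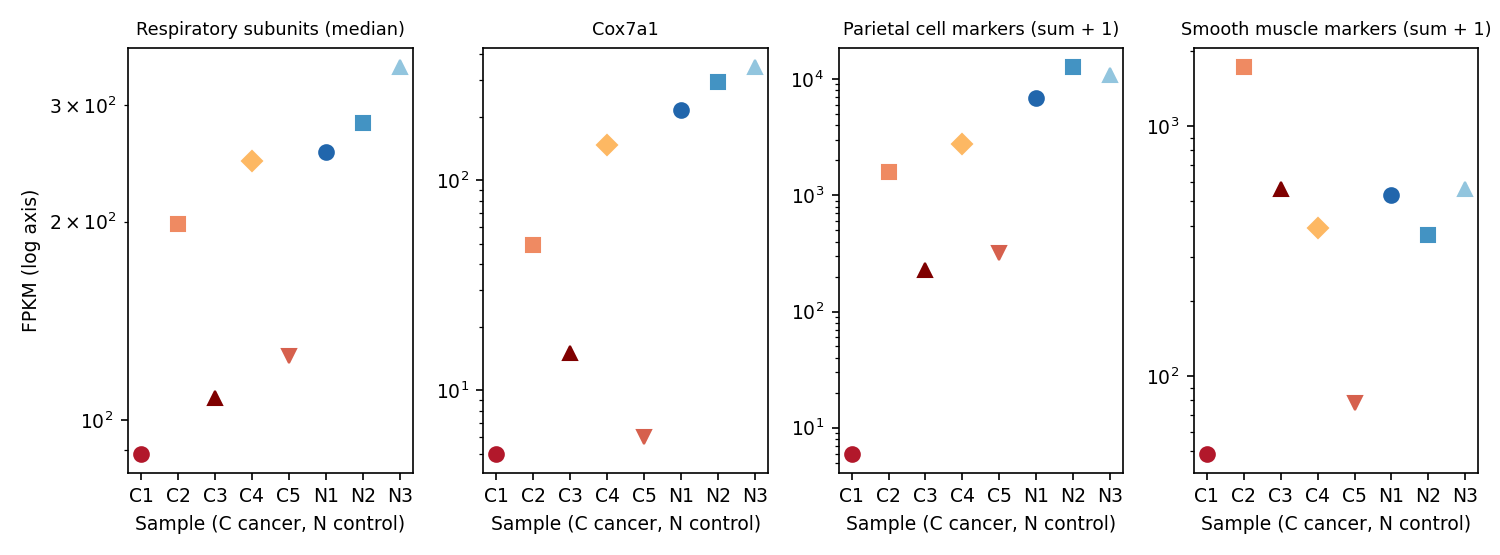
FPKM on log axes in the 5 cancers (C1 to C5) and 3 controls (N1 to N3) for the subunit median, Cox7a1, and the summed parietal cell and smooth muscle markers, the sums with 1 added. The panels of the subunit median and the parietal sum order the cancers alike, from C1 (89 and 5 FPKM before adding 1) to C4 (247 and 2747), while the smooth muscle sum peaks in C2 at 1722 FPKM.

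Counts of called genes for the other marker lists are on FPKM, with rescaled counts where they differ, and stand beside 18.3% of all genes lower and 16.2% higher on FPKM and 3.68% and 50.0% after rescaling. Pit and neck mucous markers summed to 691 to 72677 FPKM in cancers and 146212 to 214340 in controls (1 of 6 fell), and squamous markers to 1 to 1656 and 2146 to 3708 (2 of 8 fell, 1 after rescaling). Chief cell markers (1 of 4 fell, 0 after rescaling) summed to 12, 4564, 606, 7263 and 501 FPKM in cancers and 28965, 119 and 186 in controls. Pgc alone was listed at 3, 4546, 581, 6762 and 468 FPKM in cancers and 28832, 0 and 0 in controls. The other chief cell markers, Bhlha15, Cym and Pga5, were at 8 to 98 FPKM in the controls. Why Pgc was at 0 in controls 2 and 3 was not tested. All 8 neuroendocrine markers rose, with sums of 8055 to 17898 FPKM in cancers and 126 to 190 in controls. Smooth muscle markers summed to 48, 1722, 558, 389 and 77 FPKM against 530, 365 and 561, with 0 of 8 called, and the order of the cancers differed from that of Cox7a1, a muscle form. Of 12 skeletal and cardiac muscle markers, 8 were at 0 in all samples and the sums did not exceed 10. Adipocyte markers reached 709 FPKM in cancer 1 against 123 to 179 in controls, with 0 of 3 called, and hepatocyte markers 466 in cancer 5 and at most 58 elsewhere, with 0 of 1 called on FPKM and 1 higher after rescaling. Macrophage and leukocyte markers had 1 of 6 higher (3 after rescaling) and endothelial and pericyte markers 4 of 8 (5 after rescaling). The parts of these cells in the chain values were not tested.

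Respiratory subunits have short transcripts, with a median length of 758 bases against 2831 over all tested genes. Members under 1000 bases had a median difference of -1.08 on FPKM, and other genes of that length -0.15. From 1000 to 2000 bases the medians were -1.07 and -0.04, and from 2000 to 4000 bases -1.30 and -0.004. Among abundant genes outside the chain, with a mean of at least 100 FPKM, the medians in these classes were -0.41, -0.46 and -0.40. The part of length in the chain's difference was not tested.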

How the data were processed

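RNA-seq of poly(A)+ RNA from 5 SCJ cancers and 3 control SCJ tissues was used, grouped by the sample titles. Per the labels and methods, the authors trimmed reads with cutadapt 1.8, aligned with TopHat2 2.0.13 (mm10), quantified UCSC genes with cuffquant and deposited Cuffnorm 2.2.1 FPKM. The deposited values are all whole numbers and are treated as a score, a rounded FPKM, since no read counts can be had from them. Cuffnorm's normalization option is not given in the sources used here.

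Genes that reached 1 FPKM in 3 or more samples entered a limma 3.58.1 fit of log2(FPKM + 1) (R 4.3.3; eBayes with trend, two-sided, Benjamini-Hochberg over all tested genes, threshold 0.05). Fold changes on this scale understate those of low genes. The same fit was run after rescaling each column to a sum of 1000000. Isoform ratios were tested by exact permutation (scipy 1.17.1). The fit was also run on simulated data, and the outcome of that run is not given here. Alternatives were another pseudocount, filters, no trend, a replicate block, other scalings and leaving out each sample.

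The members and lists were chosen with earlier results of these data known. Genes named by rule included, per complex, the 3 largest called changes in each direction and the most abundant member. Others named by rule were 12 fixed core members, the isoform pairs, genes called on both scales, and up to 4 per neighbouring list. Ndufa1, Ndufa2, Ndufc2, Ndufs5, Uqcrc2, Cox7a2l, Atp5e, Ndufaf2, Ndufaf3, Atp5s, Nrf1 and Tfam were named after their values were seen. So were the adipocyte and chief cell markers. RefSeq promoter windows and coordinates are GRCm38.p6, and transcript lengths come from GENCODE M21.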

Additional observations from a re-analysis of the deposited data

Results flagged for a closer look

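Of 51 results examined for a single sample far from the rest of the 5 cancers, 1 stood out, where chance alone gives 2.55. Cox4i2 was listed at 1, 1, 1, 1 and 0 FPKM, so that cancer 5 was set apart by the whole range, a gap ratio of 1.0. The values differ by 1 FPKM after rounding to whole numbers.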

How the results depend on the processing

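The fall on FPKM kept its direction in the median of all members and of complexes I to V under every alternative run, and its count did not. Members lower, 27 as reported, numbered 24 with a pseudocount of 0.1 or no filter, 36 with a mean FPKM of at least 5, 28 without trend, 15 with the same sum over all but the most abundant genes, 15 with quantile normalization, 9 with the same sum over transcripts of at least 2000 bases (added after the data were seen), 3 with the same sum over all genes, and 5 to 69 with 1 sample left out. All of these but 9 of the 36, 1 of the 28, 1 of the 15 under quantile normalization and those added without cancer 2 or 4 were among the 27. Over all 14357 genes tested, 2337 were lower with a pseudocount of 0.1 and 2598 without trend. Numbers were 1249 without the most abundant genes, 1902 with quantile normalization, 1482 over long transcripts and 528 with the same sum. With no filter 2456 of 15640 were lower, and 2275 of 9138 with a mean FPKM of at least 5. The members' share was near that of all genes over long transcripts and with the same sum. Members higher, 0 as reported, numbered 10 with the same sum, 1 with the most abundant genes left out of the sum, 1 with quantile normalization and 0 to 1 with 1 sample left out. Of all 14357 genes, 7176 were higher with the same sum, 3197 without the most abundant genes and 1891 with quantile normalization. With 1 sample left out, 1369 to 2466 genes were higher. Why the counts changed was not tested. Over all genes, the result named genes called, all tested, was 4948, and it was 7704 after rescaling and 2490 to 5252 with 1 sample left out. The medians after rescaling were -0.13 for all members and -0.025, -0.20, -0.39, -0.35 and -0.17 for complexes I to V; on FPKM with 1 sample left out the same medians spanned -1.30 to -0.92, -1.22 to -0.83, -1.30 to -1.04, -1.64 to -1.18, -1.62 to -1.04 and -1.40 to -1.003. On rescaled columns, members lower ranged from 0 to 9 and members higher from 4 to 10 with 1 sample left out, and centred on the chain median from 1 to 3 and from 1 to 12.

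Groups share replicate numbers, and nothing in the labels says whether these pair the samples. Deviations of same-numbered samples from their group means had correlations of -0.021, -0.194 and -0.104. Such correlations cannot show whether samples were matched. With the replicate block, genes called, all tested, numbered 1534, of which 552 were lower. Of the members, 2 were lower and, on rescaled columns, 3 were higher. The block turned Ndufs5 to -0.33.

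Some directions turned with the scaling, among them that of Cox7a2l, which was called lower on FPKM (-0.60, adjusted p = 0.041, limma). The factors' median became 0.73 with the same sum, 0.27 without the most abundant genes and 0.11 over long transcripts. Under the same sum, Atp5e, Atp5g2, Cox7a2l, Ndufa2, Ndufaf2, Ndufaf3 and Trp53 became 0.58, 0.47, 0.37, 0.71, 0.83, 0.79 and 0.86. Without the most abundant genes, Atp5e, Ndufa2, Ndufaf2, Ndufaf3 and Trp53 became 0.063, 0.19, 0.33, 0.29 and 0.35. With quantile normalization, Atp5e, Atp5g2, Cox4i2, Ndufa2, Ndufaf2, Ndufaf3 and Trp53 became 0.16, 0.079, -0.24, 0.23, 0.06, 0.06 and 0.13. Over long transcripts, Ndufaf2, Ndufaf3 and Trp53 became 0.15, 0.11 and 0.18. Leaving out 1 sample turned Atp5s (-0.021 to 0.27), Cox4i2 (-0.20 to 0.33), Ndufc2 (-0.054 to 0.38), Ndufs5 (-0.02 to 1.18), Trp53 (-0.29 to 0.027) and the ratio of Atp5g1 to Atp5g3 (-0.004 to 0.14). Of the other comparisons for single genes and ratios, called or not, 555 changed neither sign nor test outcome, 123 fell short of a threshold they had passed and 24 passed one they had missed. Rounded FPKM with no read counts limits the lowest genes most.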
